A study of Mus musculus with 6 samples.

Results

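The 39 Hox genes on the array were followed as markers of position along the hindbrain and spinal cord in cerebellum of newborn mice. They are the genes whose name on the array is Hox, a cluster letter from a to d and a paralog number, and they make up 39 of the 34797 gene names that the array carries. Together they have 44 probes, and 5 genes, among them Hoxa9, Hoxb3 and Hoxd11, have 2 each. All 39 names occur in the RefSeq gene table of assembly GRCm38, and that table lists no further gene of this form.

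Hox genes code for homeodomain transcription factors and lie in 4 clusters in which the order of the genes follows the order of their expression along the body axis. Low paralog numbers are used from the hindbrain backwards, middle numbers from the caudal medulla and cervical cord backwards, and the highest numbers in the lumbosacral cord and tail. The cerebellum grows from the most rostral part of the hindbrain, which lies in front of the Hox domain, whereas the precerebellar nuclei of the medulla that send it mossy fibres come from Hox territory.

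The study asked whether more folic acid in the diet of the mother changes gene expression in the cerebellum of its offspring. C57BL/6J dams received an amino acid based AIN-93G diet with folic acid at 2 mg/kg or at 20 mg/kg, from 1 week before mating and through gestation, and cerebellum was taken on postnatal day 1. Each of the 6 one-colour Agilent arrays held RNA pooled from 3 pups of 1 sex, each pup from a different dam. There was 1 array for females at 2 mg, 2 for females at 20 mg, 1 for males at 2 mg and 2 for males at 20 mg. At 20 mg, 1 of the 2 pools of each sex came from another batch, and the sample titles do not say which array holds it. One label field calls the tissue whole brain, while the sample titles and protocol name cerebellum.

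Females at 2 mg, females at 20 mg replicate 1 and males at 2 mg shared 1 slide, called slide 1 here. Male 20 mg replicate 2 lay on slide 3, and the other 2 arrays lay on slide 2 and were scanned on the earlier day. Female 20 mg replicate 2, called the dim array here, stood apart from the rest: its median signal was 5.14 against 39 to 162 on the other 5 arrays. A probe is called measured on an array where the scanner software flagged it as well above background, which held for 23.3% of all 55681 probes on the dim array and for 51.1% to 71.9% on the others. Its values were therefore stretched by the normalization, and results that turn on it are also given without it. Values are log2 signals after quantile normalization with a floor of 3.32, and the number of arrays limits their precision.

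The 39 genes span 4 regions of the mm9 genome build, as the files place their probes. The Hoxa probes lie on chromosome 6, the Hoxb probes on chromosome 11 from 96057854 to 96228510, the Hoxc probes on chromosome 15 from 102759058 to 102867272, and the Hoxd probes on chromosome 2 from 74509248 to 74603059. Each probe is 1 oligonucleotide of 60 bases, and its place within exon or untranslated region was not analysed here because no annotation of that build was used.

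The probe of Hoxc11 and the start of that of Hoxc12 lie in the homeobox, the part of the gene that codes for the DNA-binding homeodomain, and are shown because a result below turns on Hoxc11 and its neighbours. Capitals mark the stretch that codes for the conserved core of the recognition helix, or in Hoxc12 the end of it, found by translating each probe in its 3 reading frames.
Hoxc11: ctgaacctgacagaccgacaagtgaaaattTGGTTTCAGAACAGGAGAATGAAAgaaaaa
Hoxc12: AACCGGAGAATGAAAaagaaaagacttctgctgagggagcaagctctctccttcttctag
Among all 55681 probes the whole core was found in 2 (0.00359%), both of them Hox probes, and its end in 4 (0.00718%), 3 of them Hox probes, with none on the reverse strand. Aligned at this stretch, the Hoxc11 and Hoxc12 probes shared 18 of 21 bases. Both probes were picked by the stretch on which they are aligned, so much of this identity was set by the choice. The bases outside these 21 were not compared.

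Hox transcripts of low and middle paralog number were measured in these tissues, and those of the highest numbers mostly were not. For a gene with 2 probes the one with the higher mean signal was used. Of the 23 genes of paralog groups 1 to 8, 18 were measured on 4 or more of the 6 arrays and 15 on 5 or more. Of the 16 genes of groups 9 to 13, 1 was measured on 4 arrays (Hoxa9), none on 5, and 10 on no array. Over all probes, 57.8% were measured on 4 or more arrays and 25.4% on none.

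By array, 22 of the 39 Hox genes (56.4%) were measured in females at 2 mg, where 63.6% of all probes were. The count was 24 (61.5%, all probes 71.9%) in females at 20 mg replicate 1, 21 (53.8%, all probes 65.8%) in males at 2 mg, 14 (35.9%, all probes 51.1%) in males at 20 mg replicate 1 and 19 (48.7%, all probes 55.7%) in replicate 2. On the dim array the 5 measured genes were Hoxb4, Hoxb5, Hoxb8, Hoxc4 and Hoxc5 (12.8%, all probes 23.3%). Values on every array are given below whether measured or not, and on the dim array those of the probes used for all other Hox genes were not well above background. The Hox share was below the share of all probes on each array.

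The clusters differed in how far detection reached. In Hoxa 8 of 11 genes and in Hoxb 7 of 10 were measured on 4 or more arrays, while in Hoxc and Hoxd it was 2 of 9 each. The measured stretch reached Hoxa9 in its cluster, ran from Hoxb2 to Hoxb8, and held Hoxc4 and Hoxc5, and Hoxd3 and Hoxd4. Hoxc6 followed with 3 arrays. Hoxb1 and Hoxd1, of the first paralog group, were measured on no array.

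**Figure D1:**
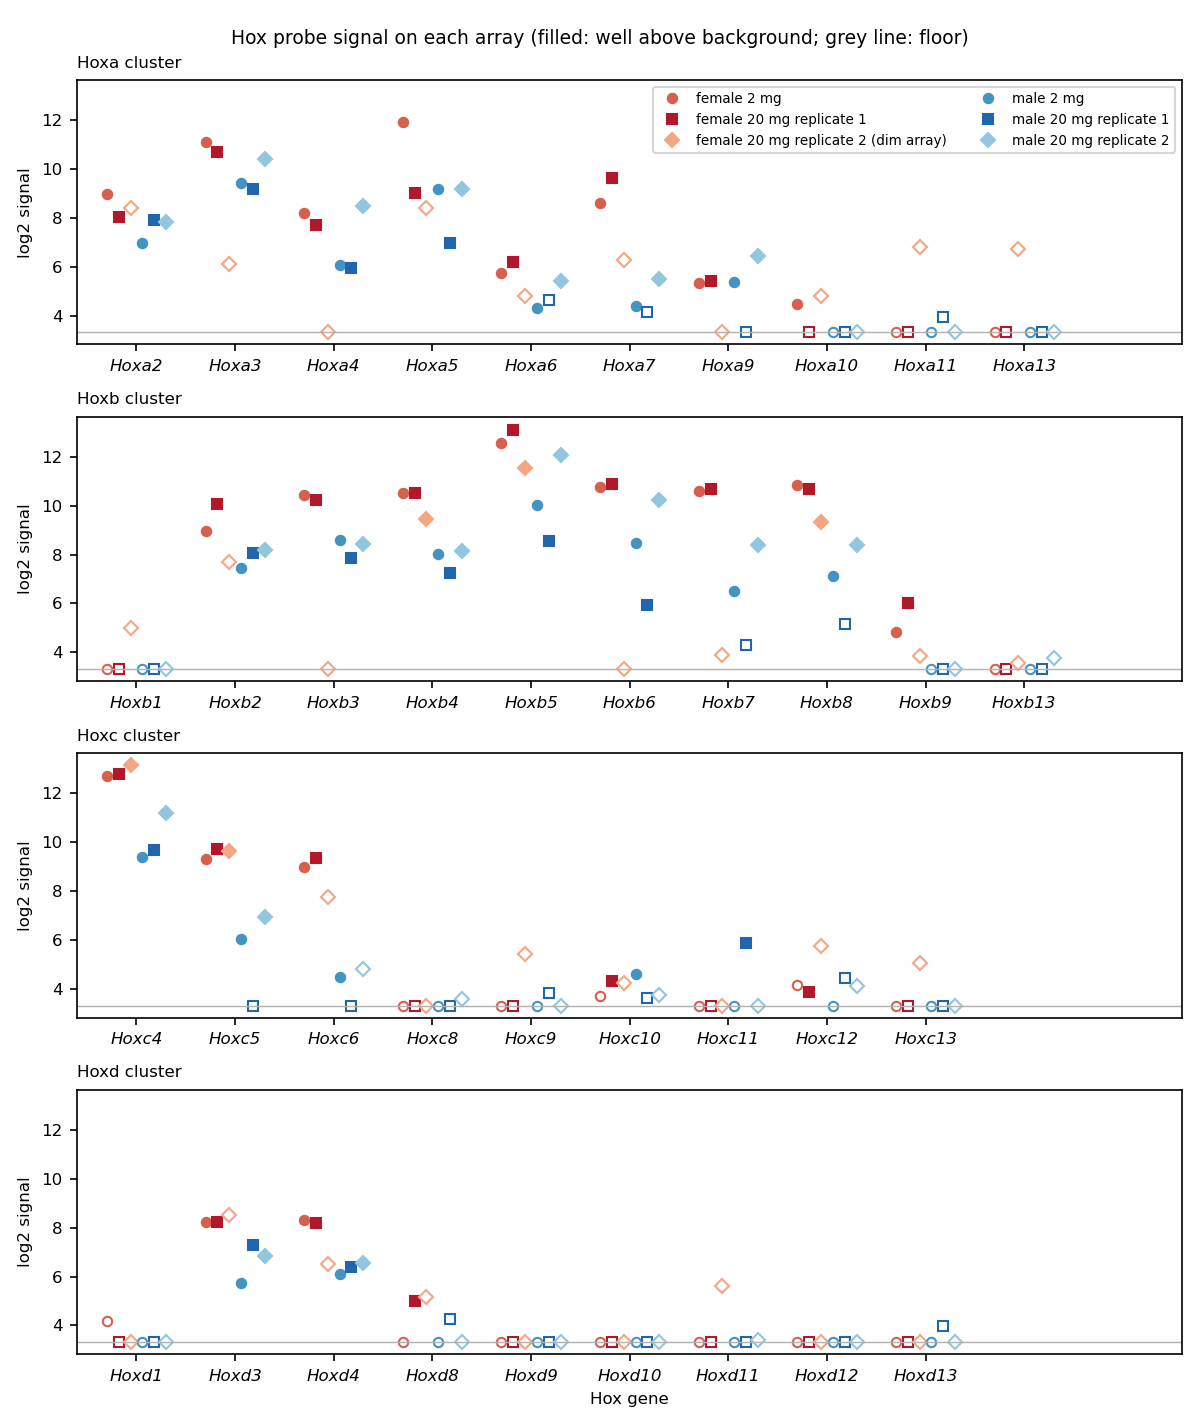
Log2 signal (vertical axis) of the probe used for each Hox gene shown, 1 panel per cluster with genes in order of paralog number; each point is 1 array, filled where the gene was measured, and the grey line is the floor of 3.32. Points of Hoxa10 to Hoxa13, Hoxb13, Hoxc8 to Hoxc13 and Hoxd8 to Hoxd13 lie at 4.59 or below, apart from open points of the dim array, Hoxc11 at 5.86 on 1 male array and Hoxd8 at 5.0 on 1 female array.

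The first paralog groups pattern the anterior hindbrain segments. Hoxa2, the factor for the identity of the second branchial arch and its hindbrain segment, stood at 9.0 in females at 2 mg, 8.06 and 8.40 in females at 20 mg replicates 1 and 2, 6.99 in males at 2 mg, and 7.90 and 7.83 in males at 20 mg replicates 1 and 2. Hoxb2 stood in the same order at 8.98, 10.07 and 7.68 in females and 7.44, 8.06 and 8.18 in males. Both slide 1 female arrays lay above all 3 male arrays for Hoxa2, and for Hoxb2 as well, and neither gene was well above background on the dim array.

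Paralog group 3 is used in the caudal hindbrain. Hoxa3 stood at 11.12, 10.70 and 6.13 in females (2 mg, then 20 mg replicates 1 and 2, as in all that follows) and 9.42, 9.19 and 10.40 in males. Hoxb3 stood at 10.45, 10.21 and 3.32 in females and 8.59, 7.84 and 8.42 in males. Hoxd3 stood at 8.22, 8.24 and 8.51 in females and 5.75, 7.29 and 6.82 in males. With the probes used, the 2 slide 1 female arrays were above every male array for all 3 genes, and the dim array was lowest of all for Hoxa3 and Hoxb3. The second probe of Hoxb3 gave another picture, with 8.89, 9.26 and 8.79 in females and 6.51, 5.61 and 9.35 in males. With it both slide 1 female arrays lay below male 20 mg replicate 2, and the dim array was not the lowest. Neither Hoxb3 probe was well above background on the dim array, where their signals before normalization were 3.91 and 18.1.

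Paralog group 4 marks the caudal medulla, and its 4 genes were all measured on 5 or 6 arrays. Hoxa4 stood at 8.19, 7.73 and 3.32 in females and 6.07, 5.97 and 8.48 in males. Hoxb4 stood at 10.51, 10.53 and 9.45 in females and 8.01, 7.25 and 8.15 in males. Hoxc4 stood at 12.72, 12.77 and 13.15 in females and 9.40, 9.67 and 11.20 in males. The groups by sex did not overlap for Hoxb4 and Hoxc4, both measured on all 6 arrays. Hoxd4 stood at 8.33, 8.18 and 6.53 in females and 6.10, 6.40 and 6.54 in males, so that here, as for Hoxa4, the dim array lay among or below the males.

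Paralog group 5 is expressed from the lower medulla and cervical cord backwards, and Hoxa5 is known for its part in the cervical skeleton and the phrenic motor column. Hoxa5 stood at 11.93, 9.01 and 8.41 in females and 9.20, 6.97 and 9.18 in males. Hoxb5 stood at 12.57, 13.10 and 11.52 in females and 10.01, 8.54 and 12.07 in males. Hoxc5 stood at 9.33, 9.71 and 9.65 in females and 6.05, 3.32 and 6.93 in males. For Hoxa5 both female arrays at 20 mg lay within the male range, whereas for Hoxc5 the sexes did not overlap.

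Groups 6 to 9 pattern the cervical to thoracic cord. Hoxa6 stood at 5.75, 6.22 and 4.8 in females and 4.31, 4.66 and 5.42 in males. Hoxb6 stood at 10.76, 10.90 and 3.32 in females and 8.46, 5.92 and 10.23 in males. Hoxa7 stood at 8.61, 9.64 and 6.27 in females and 4.40, 4.14 and 5.51 in males. For Hoxa6 and Hoxb6 the dim array lay among or below the males, and for Hoxa7 the slide 1 female arrays were above all 3 male ones, with the dim array not well above background. Hoxb7 stood at 10.58, 10.67 and 3.90 in females and 6.49, 4.3 and 8.38 in males. Hoxb8, known for its part in dorsal cord neurons and in microglial lineages, stood at 10.85, 10.67 and 9.35 in females and 7.11, 5.17 and 8.38 in males. Hoxa9 stood at 5.34, 5.41 and 3.32 in females and 5.37, 3.32 and 6.43 in males, and it did not share the gap between the sexes on slide 1. The second Hoxa9 probe, with 4.66, 4.35 and 6.98 in females and 4.47, 3.32 and 5.27 in males, showed none on slide 1 either.

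The remaining high-numbered genes gave little. Hoxb9 was measured on the 2 slide 1 female arrays, with 4.82 and 6.00, and on none of the male arrays, which were all at 3.32. Hoxc10 was so on 2 arrays, and Hoxa10, Hoxc11, Hoxc12 and Hoxd8 on 1 each. Hoxa11 and Hoxb1, which the array carries as 10 replicate spots of 1 probe, had medians before normalization of 4.69 to 8.01 over the 6 arrays. Over these spots and arrays, 1 reading of Hoxa11 and 2 of Hoxb1 were well above background.

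Between the doses, no Hox gene in male pups passed the study's fold rule with the floor set after normalization. The rule asks for a 2.5-fold difference (1.32 on the log2 scale) between the mean of the 20 mg arrays and the 2 mg array. The rule is applied to probes that vary across the arrays, and 16 of the 39 Hox genes did so. In males it called 0 of these 16 in either direction, where it called 7.92% of all 15247 varying probes as lower and 5.18% as higher. With the floor set before normalization it called Hoxc11 as higher in males, and in the authors' deposited table Hoxc4 and Hoxc11, each time out of 19 varying Hox genes. The share of all probes called is not given for these 2 settings, so the counts are not read against it. In females it called 6 of 16 (37.5%) as lower at 20 mg, namely Hoxa3, Hoxa4, Hoxa5, Hoxb3, Hoxb6 and Hoxb7, where it called 37.6% of all varying probes. It called 2 of 16 (12.5%) as higher, Hoxa11 and Hoxa13, where it called 31.6% of all, and neither gene was measured on any array. The Hox share of lower calls was thus close to that of all probes.

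Of the 6 lower calls, 5 came from the dim array. Against females at 2 mg, the difference on replicate 1 was -0.42 for Hoxa3, -0.46 for Hoxa4, -0.24 for Hoxb3, 0.15 for Hoxb6 and 0.09 for Hoxb7. On replicate 2 it was -4.99, -4.87, -7.13, -7.44 and -6.68 in the same order, and none of the 5 was well above background there. Without replicate 2, when 22 Hox genes varied, the rule called 1 as lower, Hoxa5, and 2 as higher, Hoxb9 and Hoxd8, where it called 9.86% of all varying probes as lower and 6.77% as higher. In 2 mg females the level of Hoxa5 was 11.93 and in 20 mg females 8.71 ± 0.42 (SD, n = 2), a difference of -2.93 on replicate 1 and -3.52 on replicate 2, on which it was not well above background. Over 14 alternative settings this difference ran from -3.52 to -2.52, with the same sign in each.

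Hoxa5 stood out from its neighbours in the cluster within slide 1. The probe (chromosome 6, 52152049 to 52152108) was measured on both female arrays of that slide, with signals before normalization of 8570 at 2 mg and 2170 at 20 mg. Hoxa4 differed by -0.46 and Hoxa6 by 0.46 between the same arrays. Over the 20 Hox genes measured on all 3 arrays of slide 1, the median difference was 0.03 and Hoxa5 was the 1 gene past 2.5-fold lower (5.0%), where 2.69% of all 34197 such probes were lower and 1.61% higher. None of the 20 was past 2.5-fold higher. In males Hoxa5 differed by -2.23 on replicate 1 and by -0.02 on replicate 2, so its pools at 20 mg differed.

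Across all probes limma, a linear model with shared variance, called no Hox gene for dose. Of the 22 Hox genes measured on 2 or more arrays, its adjusted p was 1.0 for each in males, in females, over both sexes and for the interaction of dose and sex, and the calls were 0.0% of all 37211 probes in each of the 4. At an unadjusted p under 0.05 there were 74 probes in males, 161 in females, 145 over both sexes and 51 for the interaction, of which 1 was a Hox gene, Hoxa5 in females. The model had 2 residual degrees of freedom, both from the pairs of 20 mg arrays, and the median standard error of the Hox dose difference within a sex was 1.8 on the log2 scale. The median Hox difference was -0.08 in males and -0.58 in females, against -0.04 and -0.21 over all probes.

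**Figure D2:**
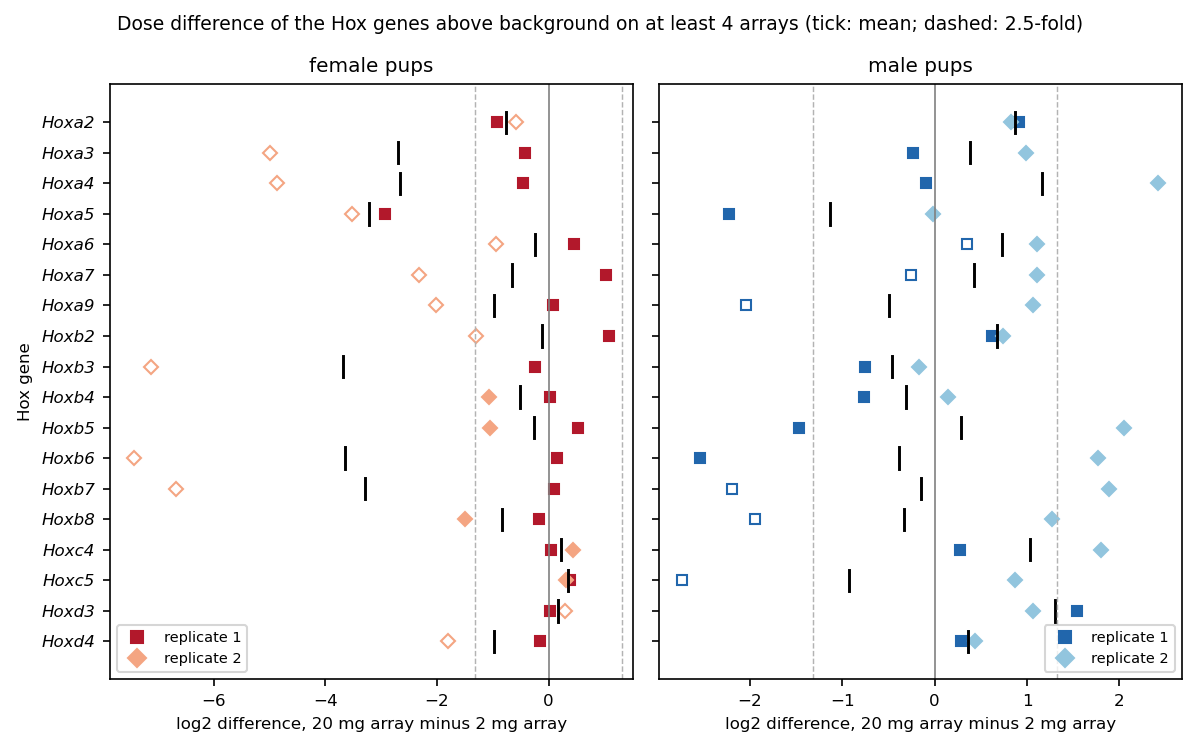
Log2 difference of each 20 mg array from the 2 mg array of its sex (horizontal axis) for Hox genes measured on 4 or more arrays; squares are replicate 1, diamonds replicate 2, filled where the gene was measured on that array, black ticks the mean and dashed lines 2.5-fold. In females the differences past -4 are open points of the dim array, and Hoxa5 is the gene with both points left of the dashed line.

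In male pups the 2 arrays at 20 mg went opposite ways for many Hox genes. Against males at 2 mg the median over the 22 Hox genes was -0.50 on replicate 1 and 0.93 on replicate 2, where it was 0.09 and -0.16 over all probes. Hoxb5 differed by -1.47 and 2.05, Hoxb6 by -2.54 and 1.77, and Hoxb7 by -2.19 and 1.89. Hoxa4 differed by -0.09 and 2.42. For the 6 measured genes of groups 1 to 3 both differences lay between -0.75 and 1.54 with the probes used. The second Hoxb3 probe lay outside that range, with -0.90 and 2.84, and was not well above background on replicate 1. Of these 6 genes, Hoxd3 differed by 1.54 and 1.07, with a mean of 1.3 that fell short of 2.5-fold. With all arrays it was also not among the varying genes to which the rule is applied. With replicate 2 left out the rule called 7 of 19 varying Hox genes as lower (Hoxa5, Hoxa9, Hoxb5, Hoxb6, Hoxb7, Hoxb8 and Hoxc5) and 2 as higher (Hoxc11 and Hoxd3), where it called 18.3% and 9.99% of all varying probes. With replicate 1 left out it called 5 of 17 as higher (Hoxa4, Hoxb5, Hoxb6, Hoxb7 and Hoxc4) and 0 as lower, where it called 15.9% and 9.76% of all, so that Hoxb5, Hoxb6 and Hoxb7 turned direction. For these genes the difference between the doses in males was smaller than the spread between the 2 pools at 20 mg.

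Hoxc11, a gene of the lumbosacral region, was measured on 1 of the 6 arrays. On male 20 mg replicate 1 it stood at 5.86, from a signal of 51.8 before normalization, while the other 5 arrays were at 3.32, with signals of 4.11 to 7.27. The other male 20 mg array was at the floor, as was the 2 mg array, so no fold between the doses is given. Over 12 alternative settings the male difference ran from 0.0 to 2.6. Its neighbours Hoxc10 and Hoxc12 and the related Hoxa11 and Hoxd11 were not well above background on that array. Hoxd8, the other gene named for both 20 mg arrays of a sex, stood at 3.32, 5.0 and 5.16 in females and 3.32, 4.25 and 3.32 in males. Of the 6 arrays, female 20 mg replicate 1 was the 1 on which it was measured, so no fold is given over both 20 mg arrays.

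A larger difference lay between the arrays by sex. This comparison was chosen after the values were seen, so it is given as a description. Over all 6 arrays the limma contrast of the sexes had a median of 1.61 over the 22 Hox genes, against -0.07 over all probes. It called no Hox gene and no other probe. On slide 1, 15 of the 20 Hox genes measured on all its 3 arrays were at least 2.5-fold higher on both female arrays than on the male 2 mg array, and none was lower on both. Among all 34197 probes measured on these 3 arrays, 63 were higher on both female arrays (0.184%) and 51 lower (0.149%). The label of sex itself was borne out by 4 probes for XIST, the RNA of the inactive X chromosome, which were 6.4 to 8.07 higher on the log2 scale on the female arrays.

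The size of that difference varied along the clusters. For paralog groups 1 to 3 (6 genes) the median was 1.78 between females and males at 2 mg and 1.46 between females at 20 mg replicate 1 and males at 2 mg. For groups 4 to 6 (10 genes) it was 2.53 and 2.48, and for groups 7 to 9 (4 genes) 3.92 and 3.87, with Hoxa9 as the exception at -0.03 and 0.04. Over all probes the medians were 0.01 and 0.02. The groups are few and small, so the order is a description of these genes.

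Single genes show its extent. Hoxc6, at 8.98 and 9.35 on the female arrays of slide 1 and 4.47 on the male one, was 22.7-fold and 29.3-fold higher. It stood at 7.74 on the dim female array and at 3.32 and 4.81 in males at 20 mg, and was well above background on none of these 3. Hoxa7 was 18.4-fold and 37.8-fold higher, Hoxb7 17.0-fold and 18.1-fold, and Hoxb8 13.4-fold and 11.8-fold. Toward the other end, Hoxa3 was 3.25-fold higher in females at 2 mg, and both Hoxa2 and Hoxa3 missed the threshold on the 20 mg array. Hoxa5 was 6.65-fold higher in females than males at 2 mg, and differed by -0.19 on the log2 scale between females at 20 mg replicate 1 and males at 2 mg.

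**Figure D3:**
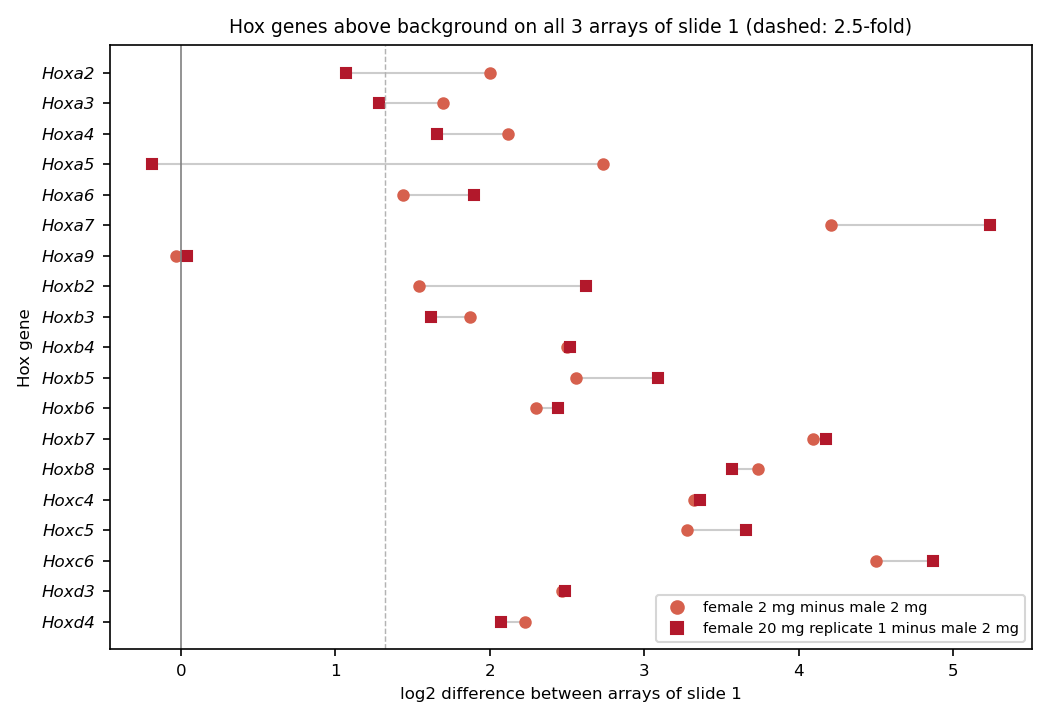
Log2 difference of the female 2 mg array (circles) and the female 20 mg replicate 1 array (squares) from the male 2 mg array (horizontal axis) for Hox genes measured on all 3 arrays of slide 1, in order of cluster and paralog number; the dashed line is 2.5-fold. In 15 genes both points lie past the line, and Hoxa5 and Hoxa9 have points near 0.

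Over all 6 arrays, 10 of the 22 Hox genes measured on 2 or more arrays had all 3 female arrays above all 3 male arrays (45.5%), where 2.14% of all 37211 probes did, and none had them below, where 2.25% did. Of the 10, the 4 that were measured on the dim array were Hoxb4, Hoxb8, Hoxc4 and Hoxc5. Hoxb9, also among the 10, was measured only on the slide 1 female arrays and lay at the floor of 3.32 on every male array. Its place in this count and in the next was thus largely set by the filter and the floor. Without the dim array, both other female arrays lay above all 3 male arrays for 18 of the 22 Hox genes, where 6.07% of all probes did, and below them for 0, where 4.37% did. Among the 18, Hoxb3 did so with the probe used and not with its second probe. For 15 Hox genes measured on at least 5 arrays, the median level was 10.45 in females at 2 mg, 10.07 and 8.41 in females at 20 mg, 7.44 in males at 2 mg and 7.25 and 8.38 in males at 20 mg. On the dim array 5 of these 15 genes were measured, so its median of 8.41 is not that of measured signal. Each sex at 2 mg is 1 pool, so sex and pool cannot be told apart there. In RNA from whole tissue, fewer cells of a type and less RNA per cell cannot be told apart either.

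Some other transcripts from the clusters were higher on the same arrays. Besides the Hox probes, 39 probes lie between the first and last Hox probe of a cluster, and 17 were measured on all 3 arrays of slide 1. Of these, 5 were at least 2.5-fold higher on both female arrays. They were 3 probes of a noncoding RNA on the forward strand of chromosome 11 (96175777 to 96176029) between Hoxb5 and Hoxb4, 1 probe between Hoxb7 and Hoxb6 (96152394 to 96152453), and AI448005 in the Hoxd cluster (chromosome 2, 74569698 to 74569757). AI448005 stood at 11.10 and 11.48 on the female arrays of slide 1 and 8.90 on the male one. With 16 Hox probes and the 4 for XIST, 38 of the 63 probes were from elsewhere. Evx1 and Evx2, homeobox genes beside the Hoxa and Hoxd clusters, were measured on 5 arrays each, and on slide 1 Evx1 differed by 0.29 and -0.12 and Evx2 by 0.10 and -0.35.

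Markers of the regions the dissection could hold were measured beside these values. Of 12 genes listed for the medulla and caudal hindbrain, all were measured on 4 arrays, 11 on males at 20 mg replicate 2 and 8 on the dim array. On slide 1 only Slc6a5, the glycine transporter of brainstem and cord interneurons, was past 2.5-fold higher on both female arrays, by 1.86 and 1.70. The members did not move as 1 set. Lbx1 differed by 1.65 and 0.31, Gata3 by -1.23 and -1.08 and Tph2 by -2.18 and -0.54, and the list's medians were 0.11 and -0.48. The list's summed signal was 7527 to 11700 in females and 7746 to 9407 in males, so it overlapped between the sexes; 11700 was the dim array, without which the females were at 7527 and 11407. For dose, Slc6a2, the noradrenaline transporter, differed from the 1 female 2 mg array by -3.05 on female 20 mg replicate 1 and by -4.66 on the dim array. It stood at 3.73 on the dim array and was not well above background there.

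Of 6 motor neuron genes, Chat, Slc18a3, Isl1, Prph and Slc5a7 were measured on 5 or 6 arrays and Mnx1, a defining gene of spinal somatic motor neurons, on 1. Isl1 was higher on both female arrays of slide 1 by 1.78 and 1.74. In males Prph differed for dose by 1.55 and 1.42. The list's summed signal was 3510 and 3219 on the slide 1 female arrays, 6549 on the dim array, where 3 of the 6 were measured, and 1743 to 3553 in males. Its part in the Hox result was not tested.

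Of 8 forebrain genes, all measured on the 3 arrays of slide 1, 5 were past 2.5-fold higher on both female arrays, among them Dlx1 by 3.13 and 5.03, Dlx2 by 2.80 and 3.92, Tbr1 by 1.78 and 3.35 and Emx1 by 1.75 and 2.41. Of the others, Emx2 differed by -1.02 and -0.17 and Lhx2 by -0.46 and 0.04. Dlx1 and Dlx2 are factors of the inhibitory neurons of the telencephalon. The list's summed signal was 9952, 20738 and 3061 in females and 6625, 12803 and 3828 in males, so the lowest was the dim array and the highest female 20 mg replicate 1. Its part in the Hox result was not tested.

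Cerebellar genes were present throughout. All 14 were measured on the 3 arrays of slide 1 and on males at 20 mg replicate 1, 13 on replicate 2 and 6 on the dim array. En2, the factor of the midbrain and hindbrain boundary, differed by -1.68 and -2.06 on the female arrays of slide 1, the 1 gene of 14 past 2.5-fold on both. Barhl1, a gene of granule cell precursors, differed by -1.48 and -1.17. Zic1 differed by 0.40 and 0.02, Neurod1 by -0.12 and 0.35 and Pax6 by -0.67 and -0.24. The medians of the list were -0.14 and -0.21, so most of it did not share the differences of En2 and Barhl1.

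Other tissues near the dissection showed no such shift with the Hox genes. Of the midbrain list 0 of 6 measured genes, of the meninges 0 of 8, of blood 0 of 5 and of vertebral mesoderm and cartilage 0 of 6 were past 2.5-fold on both female arrays of slide 1 in either direction. Pax1, the defining gene of the sclerotome, was measured on no array. Of 7 choroid plexus genes, 5 were past 2.5-fold higher on both female 20 mg arrays than at 2 mg. The share of all probes that met this criterion was not taken, and both differences rest on the 1 female 2 mg array. The fold rule called 3 of the 7 as higher in females, Ttr, Kcne2 and Aqp1. Ttr stood at 11.21 at 2 mg, 16.16 and 14.59 at 20 mg, and 14.26, 15.31 and 15.30 in males. Folr1, Clic6, Kcne2 and Aqp1 differed by 2.10 to 4.96, Kl by 0.74 and -2.19 and Otx2 by 0.61 and -0.06, while the Hox median differed by 0.03 between the slide 1 female arrays.

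**Figure D4:**
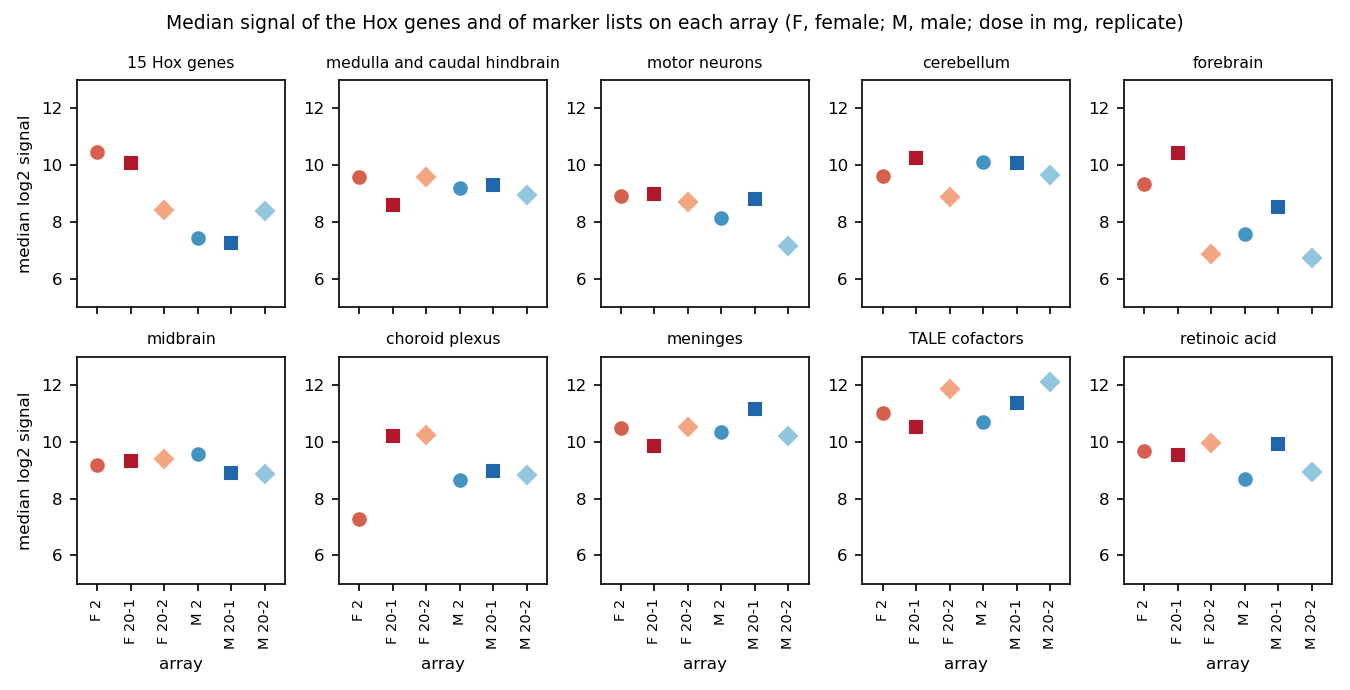
Median log2 signal (vertical axis) on each array (horizontal axis; F female, M male, dose in mg and replicate) of 15 Hox genes measured on at least 5 arrays and of 9 gene lists. The Hox median is 10.45 and 10.07 on the first 2 female arrays and 7.25 to 8.38 in males. On the same arrays the medians of the medulla, cerebellum, midbrain and meninges lists lie closer together. The forebrain median is also higher on those female arrays, at 9.35 and 10.44 against 6.72 to 8.54 in males. The choroid plexus median is 7.27 and 10.22 on them and 8.66 to 8.99 in males.

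Genes that act with or upstream of Hox genes were read in the same way. In females the fold rule called 5737 probes as lower and 4815 as higher. These are 37.6% and 31.6% of the 15247 varying probes, out of 55681 probes in all. The counts of list genes below are out of all genes of a list, varying or not, so they cannot be set directly against these shares. TALE homeodomain proteins are the partners that Hox proteins bind DNA with. All 9 on the list were measured on at least 5 arrays, and on slide 1 none was past 2.5-fold on both female arrays. The fold rule called 1 of 9 for dose, Pknox1 in females (-3.04), whose difference on replicate 1 was 0.40.

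Retinoic acid induces Hox genes in the hindbrain. Of its 17 synthesis, breakdown, receptor and binding genes, 15 were measured on each slide 1 array, and Cyp26a1 and Cyp26c1 on none of the 6. Crabp1, a retinoic acid binding protein of hindbrain neurons, was the 1 gene of 15 past 2.5-fold higher on both female arrays of slide 1, by 1.44 and 1.77. The fold rule called 3 of 17 as lower in females for dose, Rdh10 (-2.07), Cyp26b1 (-1.93) and Stra6 (-2.79), and none in males. Cyp26b1, the enzyme that breaks retinoic acid down, was the 1 of these past the threshold on both arrays, at -1.41 and -2.46.

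Of 8 upstream factors, Cdx2 and Cdx4, which drive trunk Hox genes in the embryo, were measured on no array and Cdx1 on 2. The rule called Gdf11 as higher in females (1.83), where replicate 1 differed by 0.22. Of 11 Polycomb and Trithorax genes, whose proteins keep Hox clusters closed or open, it called 4 as lower in females. These were Suz12, Bmi1, Ring1 and Kdm6b, with differences of -0.31 to 0.33 on replicate 1. In males it called Suz12 as lower (-1.34). On slide 1 none of these 11 was past 2.5-fold on both female arrays. Limma called no gene of any of these lists for dose or interaction.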

How the data were processed

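Cy3-labelled cRNA of 6 pools was hybridised to one-colour Agilent arrays, and the deposited scanner files hold spot intensity from Agilent Feature Extraction 10.7.3.1 with probe positions on mm9. The authors also deposited a table of processed log2 values, used here as an alternative. Spots flagged as outliers were dropped, spots of a probe averaged, and log2 values quantile-normalized and floored at 10 (3.32 on the log2 scale), after the study's methods. The fold rule used probes varying at p at or under 0.05 with at most 50% missing. Limma 3.58.1 in R 4.3.3 fitted 4 group means with a trended prior to probes well above background on at least 2 arrays, with Benjamini-Hochberg adjustment and calls under 0.05. On simulated data with known changes, their recovery was required only at a noise below that of these arrays, so that run does not show its power here. Values are given on every array for Hoxa3, Hoxa4, Hoxa5, Hoxc11, Hox genes well above background on at least 4 arrays and those past 2.5-fold on both 20 mg arrays of a sex; Hoxb9 and Hoxc6 were named after their values were seen. From the marker lists, genes past that threshold on both 20 mg arrays or defining genes were to be named, and others were named after their values were seen. Members and lists were chosen with earlier results of these data known. Single probes cannot separate transcripts, and quantile normalization stretches a dim array. Some genes and 1 probe sequence are not reported here, though they enter the counts and medians.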

Additional observations from a re-analysis of the deposited data

Results flagged for a closer look

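For Hoxa2 and Hoxd4 both 20 mg arrays of 1 sex moved one way from the 2 mg array and both of the other sex the opposite way. Hoxa2 differed by -0.93 and -0.59 in females and by 0.91 and 0.83 in males, so that the female difference minus the male one was -1.63. Hoxd4 differed by -0.15 and -1.80 in females and by 0.29 and 0.44 in males, and the female difference minus the male one was -1.34. On the dim array, replicate 2 of the females, neither gene was well above background. The difference between the sexes did not pass the interaction test of limma, with an adjusted p of 1.0 for both genes. Opposite movement of this kind was seen in 9.01% of all 37211 probes, and in 3 of the 22 Hox genes in the model. The third was Hoxc10, measured on 2 arrays, which differed by 0.63 and 0.54 in females and by -0.95 and -0.83 in males. The 2 arrays of a sex share its single 2 mg array.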

How the results depend on the processing

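Limma called 0 Hox genes in the male, female, joint and interaction comparisons under each of 13 or 14 alternatives, and the lowest adjusted p of a Hox gene was 0.132 in females, 0.201 over both sexes, 0.226 for the interaction and 1.0 in males. At most 96 of all probes were called, in females without replicate 1 at 20 mg. The fold rule moved more. Its Hox counts here are given without the share of all probes called under the same setting. The number of varying Hox genes also differed, with 6 under 75th percentile scaling and 25 on slide 1 alone. The counts thus show how far the calls move and are not read against all probes. In males, where it called 0 in each direction, it called 1 Hox gene as higher with the floor set before normalization, 2 in the authors' table and 5 on the later scan day alone, and leaving out 1 array gave 0 to 7 as lower and 0 to 5 as higher. In females, with 6 lower and 2 higher, the 75th percentile scaling gave 2 lower and 0 higher, since it left 6 Hox genes past the filter on variation. The later scan day alone gave 3 lower and 1 higher, and slide 1 alone 3 lower. The calls as higher came to 0 with normexp, with the mean signal, with the floor first and in the authors' table, and to 1 with the mean of all probes of a gene. Leaving out 1 array gave 1 to 9 lower, 1 of them without replicate 2 at 20 mg. Hoxb6 and Hoxb7 turned from -3.65 and -3.30 to 0.14 and 0.09 on the later scan day alone and on slide 1 alone, and ran from -7.01 to 0.14 and from -6.55 to 0.08 with 1 array left out. With the weaker flag of positive and significant signal, 17 Hox genes were detected on the dim array and 23 on male 20 mg replicate 1; on the other 4 arrays, and with any probe of a gene, the counts stayed within 1.5 times. The 15 genes higher on both female arrays of slide 1 were 12 to 16, and the 10 without overlap between the sexes 8 to 12, under alternatives chosen after seeing the data, apart from 18 without the dim array, where 6.07% of all probes did not overlap in that direction and fewer arrays are compared. No paired analysis was possible because each 2 mg group has 1 array and shares 1 number with its 20 mg group, and slide as a block leaves no degrees of freedom. The scan day as a block was fitted with 1 degree of freedom. Single pools at 2 mg, 3 slides and 1 dim array limit every value; the causes of these shifts were not tested.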
